A study of Brassica rapa subsp. pekinensis with 6 samples.

Results

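The B3 domain proteins are plant transcription factors that share 1 DNA-binding fold, and they include VRN1, a gene named for its part in vernalization. The members described here were taken from the deposited table of linear transcripts. A member is a reference transcript whose protein description names a B3 domain, VERNALIZATION 1 or VRN1, and does not name an auxin response factor or ABSCISIC ACID-INSENSITIVE. The rule used no measured value and found 78 members among 33354 reference transcripts, in a table of 57931 transcripts with the assembled ones. By description, 2 members are VRN1 genes, 4 are VAL genes, 9 are RAV or TEM genes, 2 are FUS3 genes, 7 are NGA genes and 19 are REM genes, and the other 35 are mostly named after an Arabidopsis locus and also hold ABI3.

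The study compared germinated seeds of Chinese cabbage (Brassica campestris L. ssp. pekinensis) from 1 doubled haploid line, 'FT'. The Ver seeds were kept in the dark at 4 °C for 25 days after germination (3 libraries). The Nor seeds had about 48 h at room temperature, also in the dark by the study's methods, and no cold (3 libraries). The methods count a culture dish of seeds as a biological repetition, so each library was taken to hold pooled whole seedlings. A lower value in a pool cannot be told apart as fewer cells of a type or less RNA per cell. Both groups were sampled once they had reached the same length, so temperature and time since germination differ together and cannot be told apart. The estimated counts of a library summed to between 83976912 and 104903263.

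In Arabidopsis, where most of these proteins are known, VRN1 binds DNA without strong sequence preference and is needed to keep FLC, a repressor of flowering, silent after cold. It is not related to the MADS-box gene called VRN1 in cereals. VAL1 recognises the RY motif in FLC and recruits repressive complexes, TEM1 represses the florigen gene FT and gibberellin synthesis, and ABI3, FUS3 and LEC2 drive seed maturation, which VAL proteins shut down at germination. NGA and NGA-like proteins shape leaves, styles and seeds, and most REM genes are known from meristems and flower organs. No sequence of these genes was used here.

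Many members were weakly expressed. By the reference transcript, 17 of the 78 members had a mean of at least 1 FPKM (fragment counts scaled for transcript length and library depth) in Ver or Nor, against 28 by the gene sum, and 25 reference transcripts had 12 or fewer counts in every library. Among counts of 1 to 10, the value 4 was commonest, so 4 counts were read as 1 read pair and 12 counts, 3 read pairs, were taken as the floor of detection in a library. All 78 reference models have a length divisible by 3, as coding sequences without UTRs have, while 21 members also have assembled transcripts (31 in all) in the same gene. Each member was therefore tested on its reference transcript and again on the sum over all transcripts of its gene. The filter on low counts passed 40 reference transcripts and 48 gene sums.

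A member was called where its log2 fold change in the edgeR quasi-likelihood fit was beyond 1 in either direction and its p, before adjustment, did not exceed 0.05. The 40 tested members gave 13 calls (32.5%), where the same rule called 17.8% of the 26531 reference transcripts tested. There were 8 members higher in Ver (20.0%, against 8.42% of all transcripts tested) and 5 lower in Ver (12.5%, against 9.39%). With the same limit on the adjusted p, 9 members were called (22.5%), against 14.4% of all transcripts tested. On gene sums, 19 of 48 members were called (39.6%, against 18.4% of the 28250 gene sums tested). Of these, 12 were higher (25.0%, background 8.68%) and 7 lower (14.6%, background 9.69%). The median log2 fold change of the tested members was 0.17 for reference transcripts and 0.06 for gene sums, beside -0.011 and -0.00053 for all features tested. Members that passed the filter may have done so through the group where they are high, so these shares describe the tested members only.

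**Figure D1:**
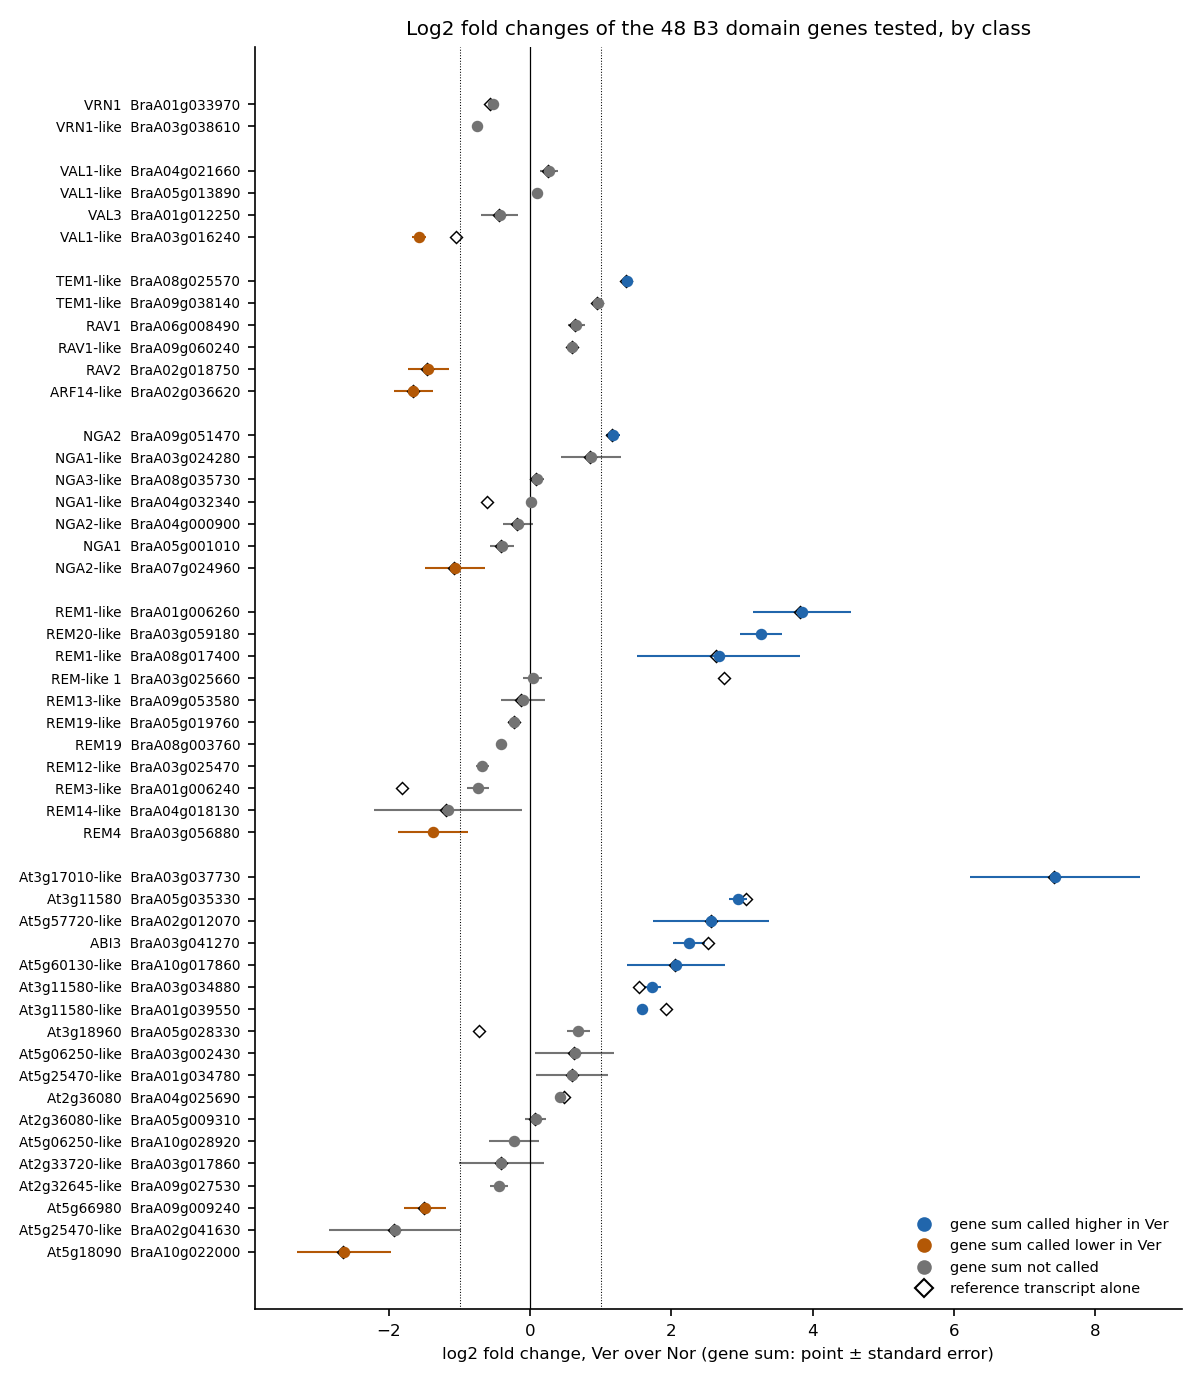
Log2 fold changes, Ver over Nor, of the 48 members whose gene sum was tested, grouped by class and ordered within a class. Points are gene sums with their standard error, open diamonds are the reference transcripts alone, and dotted lines mark a log2 fold change of 1 in each direction. Gene sums called higher (12) lie mostly among REM and locus-named genes, neither VRN1 gene passes the dotted line, and the value of 7.42 for the At3g17010-like gene is a fitted value against Nor libraries that are all at 0.

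**Figure D2:**
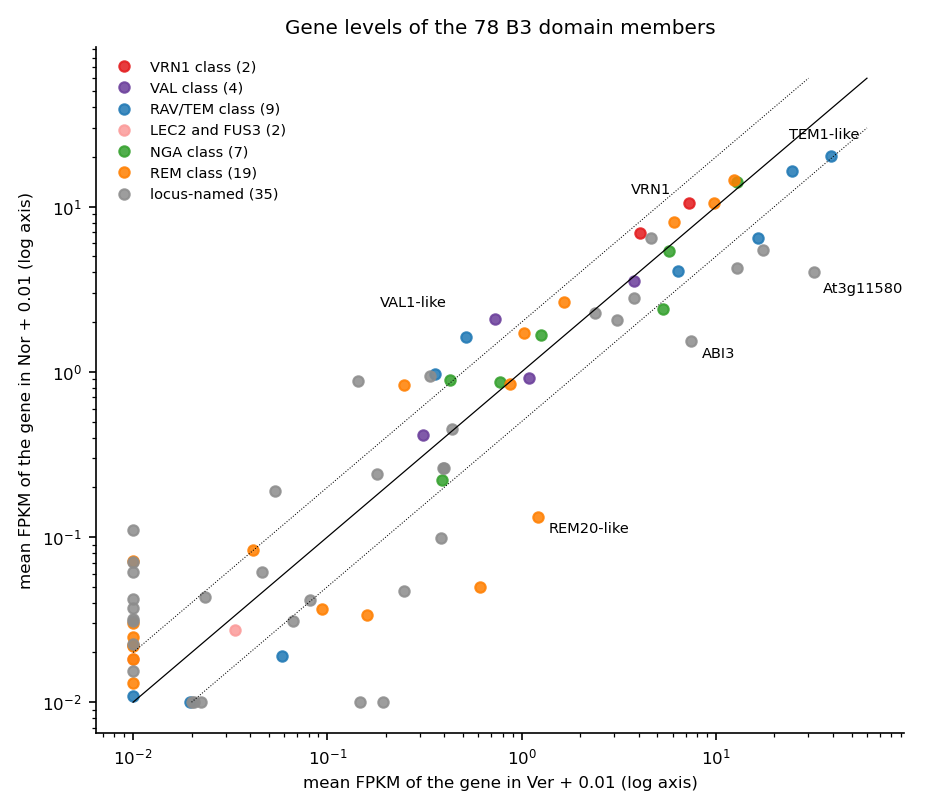
Mean FPKM of the 78 members in Ver (horizontal) and Nor (vertical), summed over the transcripts of each gene, with 0.01 added for the log axes. The solid line marks equal levels and the dotted lines a ratio of 2 in either direction. The TEM1-like gene with 39.2 FPKM in Ver and the At3g11580 gene with 32.1 FPKM in Ver are the 2 highest members in Ver, and many members sit near 0.01 on either axis.

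The 2 VRN1 genes that the rule selects were lower in Ver than in Nor, by less than the fold threshold. BraA01g033970.3C (chromosome A01, bases 23266355 to 23268957, 5 exons), described as VRN1, had gene-summed normalized counts of 994, 1117 and 1107 in Ver and 1548, 1537 and 1541 in Nor. The groups did not overlap, and the Nor libraries were nearly equal. The edgeR fit gave a log2 fold change of -0.52 with a standard error of 0.07 (adjusted p = 0.000165), and errors of fold changes below are standard errors in the same way. Its reference transcript alone gave -0.58 ± 0.14 (adjusted p = 0.0308). The gene was read at 7.29 ± 0.51 FPKM in Ver and 10.6 ± 0.07 FPKM in Nor (SD).

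BraA03g038610.3C (A03, bases 19118034 to 19120080, 5 exons), described as VRN1-like, shows why the sums matter. Its reference transcript had 0 counts in all Ver libraries and 20, 0 and 0 counts in the Nor libraries, so it was not tested. Nearly all counts of the gene fell on 2 assembled transcripts, and summed over the gene the normalized counts were 952, 823 and 865 in Ver and 1502, 1536 and 1396 in Nor. The groups did not overlap. The log2 fold change was -0.75 ± 0.08 (adjusted p = 4.20e-05). The gene ran at 4.05 ± 0.30 FPKM in Ver and 6.89 ± 0.26 FPKM in Nor (SD, n = 3 each). Neither VRN1 gene was called by edgeR, DESeq2 or limma, although both gene sums passed the limit on p in each of the 3 tools. Of the 24 reference transcripts annotated with vernalization response, these 2 are the only members. A further gene with this annotation, BraA05g028310.3C (A05, bases 21149298 to 21151462), is called VRN1 in the study, but its description holds none of the words of the rule. It had gene-summed estimated counts of 2444, 2514 and 2712 in Ver and 3130, 2284 and 2896 in Nor. Unlike the counts of the VRN1 members above, these are not normalized, and Nor replicate 2 had the lowest library total. On these counts the groups overlapped. For the gene sum, edgeR gave a log2 fold change of -0.11 ± 0.06 (adjusted p = 0.123), and for the reference transcript 0.59 ± 0.34 (adjusted p = 0.27). It therefore did not show the difference of the other VRN1 genes.

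**Figure D3:**
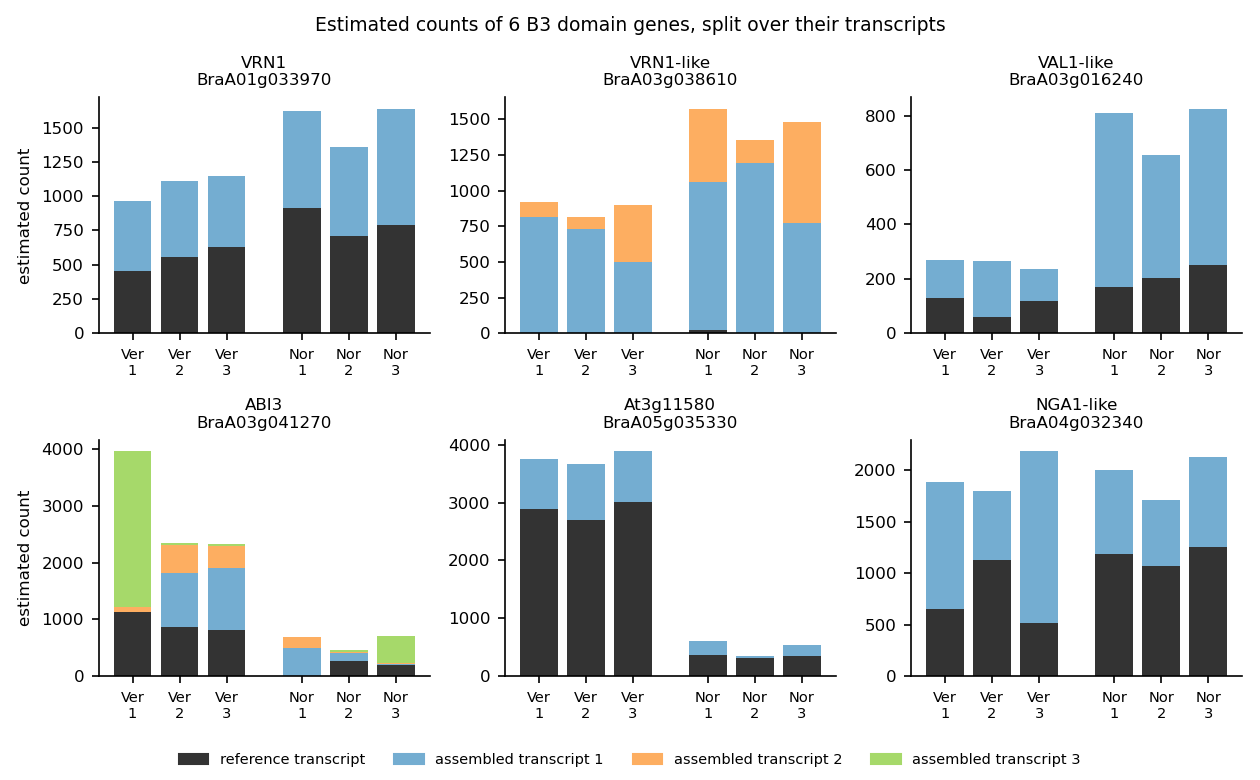
Estimated counts of 6 member genes in each library, Ver left of Nor, stacked by transcript: the reference transcript in black and up to 3 assembled transcripts in colour. The VRN1-like bars hold almost no black, and the split of ABI3 and NGA1-like counts over transcripts differs between libraries of the same group while the height of the bars differs less.

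FLC, which VRN1 keeps silent in Arabidopsis, and the genes known to act together with VRN1 there were counted by their descriptions (FLC, VIN3 and VIN3-like genes and Polycomb group proteins). Of 17 gene sums tested, 2 were called higher and 5 lower in Ver, with a median log2 fold change of -0.42. All 4 FLC gene sums were among the 5 called lower in Ver (median -2.86). Of 6 VIN3 or VIN3-like gene sums, edgeR called 2 higher and 0 lower, while 3 were lower in Ver on the limit on p alone. With limma on log2(FPKM + 1), 1 was called higher. This list was chosen with results of these data known, so its counts are a description.

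The VAL genes split by copy. BraA03g016240.3C (A03, bases 7504288 to 7507854, 11 exons), VAL1-like, was lower in Ver, with gene-summed normalized counts of 276, 266 and 229 in Ver and 773, 741 and 776 in Nor. No Ver library came near the lowest Nor library. The log2 fold change was -1.57 ± 0.10 (adjusted p = 1.61e-06, 2.97-fold lower). Its reference transcript carried 39.5% of the gene's counts in Ver and 27.2% in Nor, and alone gave -1.06 ± 0.36 (adjusted p = 0.0914). That call on the reference transcript was lost without Ver replicate 2 (-0.78), Ver replicate 3 (-1.14, on p), Nor replicate 2 (-0.98) or Nor replicate 3 (-0.96) in edgeR, while the call on the gene sum held without each of the 6 libraries. With limma on log2(FPKM + 1) the gene sum stood at -0.84, short of the fold threshold.

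The other VAL genes did not follow it. BraA05g013890.3C, also VAL1-like, had 1297, 1406 and 1334 normalized counts per gene in Ver and 1311, 1255 and 1216 in Nor, almost all on an assembled transcript. The groups overlapped, with a log2 fold change of 0.09 ± 0.07 (adjusted p = 0.257). BraA04g021660.3C, the third VAL1-like gene and the one with the highest FPKM of a reference transcript in the class, stood at 0.25 ± 0.15 (adjusted p = 0.286), and VAL3 (BraA01g012250.3C) at -0.44 ± 0.29 (adjusted p = 0.334). By gene sum, counts of the A03 copy were 0.171 to 0.213 of those of the A05 copy in the Ver libraries and 0.589 to 0.638 in the Nor libraries, without correction for length.

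In the RAV and TEM genes, which carry an AP2/ERF domain beside the B3 domain, 6 of 9 members were tested, with 1 called higher and 2 called lower in Ver. BraA08g025570.3C (A08, bases 18418121 to 18419200), TEM1-like, had normalized counts of 2403, 2292 and 2320 in Ver and 898, 835 and 1001 in Nor, a log2 fold change of 1.36 ± 0.08 (adjusted p = 0.000305, 2.57-fold). Its groups were far apart.

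The other TEM1-like gene, BraA09g038140.3C (A09, bases 30120443 to 30121561), had the highest FPKM of any member, at 39.2 ± 1.30 in Ver and 20.2 ± 0.06 in Nor (SD, n = 3 each). Normalized counts were 5662, 5959 and 5586 in Ver and 2981, 2944 and 2972 in Nor. It was 1.93-fold higher (log2 fold change 0.95 ± 0.04, adjusted p = 6.89e-05), just short of the fold threshold, without overlap. RAV1 (BraA06g008490.3C) at 0.64 ± 0.14 (adjusted p = 0.0254) and RAV1-like (BraA09g060240.3C) at 0.59 ± 0.07 (adjusted p = 0.00285) were higher by smaller folds, with no overlap of the groups in either. RAV1-like was expressed at 24.7 ± 1.61 FPKM in Ver and 16.4 ± 0.89 FPKM in Nor.

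The 2 called lower were both under 2 FPKM. RAV2 (BraA02g018750.3C; A02, bases 10603592 to 10604644), known in Arabidopsis as TEM2, had 39.0, 66.1 and 41.3 normalized counts in Ver and 109, 166 and 127 in Nor (log2 fold change -1.45 ± 0.32, adjusted p = 0.0252). The ARF14-like gene (BraA02g036620.3C; A02, bases 25544839 to 25545819), which is described as an AP2/ERF and B3 protein and not as an auxin response factor, had 42.1, 95.2 and 58.6 in Ver and 202, 198 and 222 in Nor (-1.67 ± 0.35, adjusted p = 0.0202). Neither gene overlapped between groups. The 3 members named At1g50680 or At1g51120 had at most 16 counts in any library. Of 7 genes described as FT, TWIN SISTER of FT or gibberellin 3-beta-dioxygenase, which TEM proteins repress in Arabidopsis, 3 gene sums were tested, with 1 called higher and 1 called lower in Ver.

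Among the regulators of seed maturation, ABI3 was higher in Ver and the FUS3 genes were at the floor. ABI3 (BraA03g041270.3C; A03, bases 20695862 to 20698682, 6 exons) mediates abscisic acid responses in maturing seeds. Summed over its 4 transcripts, it had normalized counts of 4082, 2358 and 2248 in Ver and 663, 511 and 655 in Nor. Ver replicate 1 was the highest by a wide margin, and every Ver library was above every Nor library. The log2 fold change was 2.24 ± 0.23 (adjusted p = 2.91e-05, 4.74-fold), and it was 1.71 to 2.40 over the alternatives run.

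The reference transcript of ABI3 showed the same direction without a call. It had 1161, 871 and 786 normalized counts in Ver and 0, 306 and 187 in Nor (log2 fold change 2.51 ± 1.61, adjusted p = 0.326). Without Nor replicate 1, where the estimate put no count on this transcript, edgeR gave 1.93 and an unadjusted p of 0.00323. The 2 FUS3 genes, BraA02g037130.3C and BraA06g038070.3C, had at most 8 counts in any library and could not be compared at this depth. No member was described as LEC2.

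Seed storage genes moved in the same direction as ABI3. Of 27 storage protein and oleosin transcripts tested, 22 were called higher and 2 lower in Ver, and their summed FPKM was 1438 to 1475 in Ver libraries and 40.5 to 44.5 in Nor libraries, with none of the 32 listed transcripts at 0 in all libraries. In the list for green tissue the summed FPKM was 15097 to 15361 in Ver and 8050 to 8474 in Nor (12 higher and 2 lower of 28 tested), and in the list for root it was 10.4 to 11.9 in Ver and 40.6 to 41.9 in Nor (0 higher and 2 lower of 3 tested). The lists for flower organs (summed FPKM of 0.817 to 3.23 in Ver and 0.923 to 1.94 in Nor, 0 calls by edgeR among 2 tested and 0 at p of at most 0.05 alone, with 1 called higher by DESeq2) and pollen (97.9 to 119 in Ver and 105.3 to 117 in Nor, 1 higher and 1 lower of 17 tested) did not separate the groups. The part of tissue makeup in the results for members was not tested.

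The genes described by the locus At3g11580, which in Arabidopsis is the NGA-like gene SOD7, a regulator of seed and organ size, were all higher in Ver. These 3 are also the only members annotated with regulation of seed growth (12 reference transcripts in all). BraA05g035330.3C (A05, bases 24926676 to 24928870, 3 exons) had normalized counts of 2969, 2698 and 2883 in Ver and 357, 343 and 329 in Nor. The lowest Ver library was many times the highest Nor library. The log2 fold change was 3.05 ± 0.07 (adjusted p = 1.37e-05, 8.31-fold), and FPKM over the gene was 32.1 ± 1.14 in Ver and 4.02 ± 0.45 in Nor (SD).

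The other At3g11580 genes changed by less. BraA01g039550.3C (A01, bases 26640371 to 26642111) had 1164, 1223 and 1104 in Ver and 336, 309 and 280 in Nor (1.92 ± 0.11, adjusted p = 0.000225). BraA03g034880.3C (A03, bases 17221815 to 17223126) had 1125, 1066 and 1080 in Ver and 422, 363 and 340 in Nor (1.54 ± 0.11, adjusted p = 0.000542). On gene sums the 3 genes gave 2.94, 1.58 and 1.73. All 3 kept their call under every alternative run.

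Their relatives in the NGA-like group differed less. At2g36080 (BraA04g025690.3C), known in Arabidopsis as ABS2, had a gene sum of 842, 860 and 829 normalized counts in Ver and 608, 628 and 653 in Nor (log2 fold change 0.42 ± 0.08, adjusted p = 0.00129). The groups did not overlap, but the difference was under the fold threshold. At2g36080-like (BraA05g009310.3C) stood at 0.06 ± 0.18 (adjusted p = 0.838), and the gene sums of the At5g06250-like genes, related to DPA4 of Arabidopsis, at 0.63 (BraA03g002430.3C, adjusted p = 0.367) and -0.23 (BraA10g028920.3C, adjusted p = 0.615), each with overlapping groups.

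**Figure D4:**
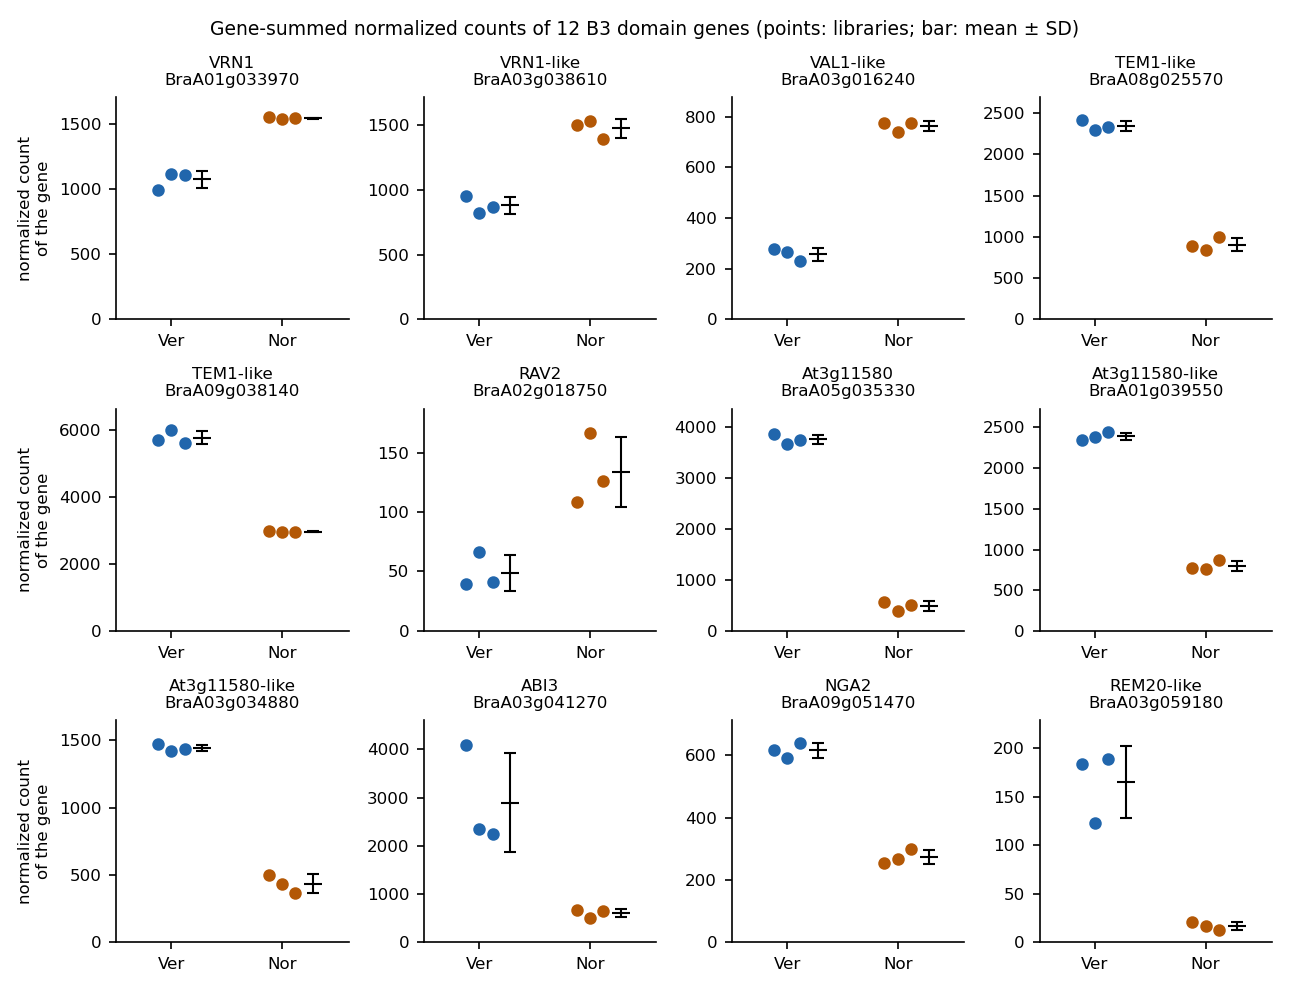
Normalized counts of 12 member genes, summed over the transcripts of each gene, with 1 point per library, Ver left of Nor, and the mean ± SD as a bar. Axes start at 0. The groups are apart in all 12 panels, with VRN1, VRN1-like, VAL1-like (A03) and RAV2 lower in Ver and the other 8 genes higher in Ver. The 12 genes were picked with their values known, so their separation does not describe the members as a whole.

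The NGA genes proper, which control leaf margins and style development in Arabidopsis, were all 7 tested and gave 1 call. NGA2 (BraA09g051470.3C; A09, bases 37888010 to 37888888) had 614, 590 and 635 normalized counts in Ver and 256, 265 and 301 in Nor, without overlap. The log2 fold change was 1.16 ± 0.12 (adjusted p = 0.00164). The NGA2-like gene on A07 (BraA07g024960.3C) went the other way, with 44.1, 70.1 and 27.8 in Ver and 55.6, 128 and 116 in Nor, and its groups overlapped. As a gene sum, which holds no other transcript, it was called lower (-1.06 ± 0.42, adjusted p = 0.0587). In the fit of reference transcripts it was not called (-1.07 ± 0.50, adjusted p = 0.182). The call on the gene sum was lost without Ver replicate 1 (-1.02), Ver replicate 3 (-0.79), Nor replicate 2 (-0.85) or Nor replicate 3 (-0.94). The third NGA2 gene, BraA04g000900.3C, stood at -0.18 ± 0.22 (adjusted p = 0.608).

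NGA1-like on A04 (BraA04g032340.3C; bases 21798377 to 21799291) had the highest FPKM in the class, at 12.8 ± 0.295 in Ver and 14.0 ± 0.38 in Nor over the gene. Its reference transcript had 672, 1131 and 496 normalized counts in Ver and 1133, 1207 and 1189 in Nor (log2 fold change -0.62 ± 0.31, adjusted p = 0.218), and without Ver replicate 2 it passed both thresholds (unadjusted p of the edgeR fit 0.00279). The gene sum was 1946, 1804 and 2105 in Ver and 1903, 1934 and 1996 in Nor. The groups overlapped there, and the log2 fold change was 0.0054 ± 0.06 (adjusted p = 0.95). NGA3-like (BraA08g035730.3C) stood at 0.09 ± 0.11 (adjusted p = 0.626), NGA1 (BraA05g001010.3C) at -0.41 ± 0.17 (adjusted p = 0.153) and the NGA1-like gene on A03 (BraA03g024280.3C) at 0.84 ± 0.34 (adjusted p = 0.132).

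Of the 19 REM genes, 11 gene sums were tested, with 3 called higher and 1 lower, and 7 reference transcripts, with 1 called higher. REM19-like had the highest FPKM of the class, at 12.3 ± 0.59 in Ver and 14.5 ± 1.20 in Nor over the gene (SD), and the 2 REM19 genes are the only members annotated with response to cold. REM19-like (BraA05g019760.3C) had gene-summed normalized counts of 1274, 1341 and 1185 in Ver and 1600, 1373 and 1478 in Nor (-0.23 ± 0.08, adjusted p = 0.0341). REM19 (BraA08g003760.3C) had 958.5, 1024 and 1088 in Ver and 1321, 1380 and 1394 in Nor (-0.41 ± 0.07, adjusted p = 0.000982). Neither gene overlapped between groups, and both differences were under the fold threshold.

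The called REM genes were weaker. REM20-like (BraA03g059180.3C; A03, bases 31404007 to 31405178) had a gene sum of 183.5, 122.5 and 189.1 normalized counts in Ver and 20.97, 16.96 and 13.16 in Nor, without overlap (log2 fold change 3.27 ± 0.30, adjusted p = 1.67e-05, 9.63-fold). All but 8 of its counts fell on an assembled transcript. REM4 (BraA03g056880.3C) had a gene sum of 38.1, 9.04 and 35.7 in Ver and 74.3, 59.9 and 80.8 in Nor (-1.37 ± 0.49, adjusted p = 0.0400). The REM4 call was lost without Ver replicate 2 (-0.96), Nor replicate 1 (-1.35) or Nor replicate 3 (-1.28), on p in the last 2 cases.

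A run of 4 REM genes on A01, bases 3009989 to 3026685, held neighbours whose gene sums differed in opposite directions. REM1-like (BraA01g006260.3C; bases 3021321 to 3023350) had 118, 110 and 85 counts in Ver and 10, 11 and 0 in Nor, each Nor library being at or under the floor. Taken as read pairs, 78 stood against 5, a ratio of 14.8 (exact 95% interval for counting error 6.35 to 48.9). The adjusted p of the edgeR fit was 0.0631, and 0.00124 for the gene sum, which holds no other transcript. In edgeR the call on the reference transcript was lost without Ver replicate 1 (log2 fold change 3.70) or Nor replicate 1 (4.07), on p in both cases.

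REM3-like (BraA01g006240.3C), the member before it at a gap of 2730 bases, had a gene sum of 193, 222 and 284 normalized counts in Ver and 364, 406 and 393 in Nor (-0.73 ± 0.15, adjusted p = 0.00295), without overlap. Only 2.74% of its counts fell on the reference transcript of 12 exons, which was not called (-1.81 ± 1.86, adjusted p = 0.551). The rest fell on an assembled transcript of 3 exons, bases 3013779 to 3015701, over the first part of the gene. REM4 (BraA01g006230.3C) had at most 2 counts and REM1 (BraA01g006270.3C) at most 19 in any library. A second REM1-like gene, on A08 (BraA08g017400.3C), had 28, 27 and 21 counts in Ver and 0, 11 and 0 in Nor, a ratio of 6.85 (exact 95% interval 1.85 to 33.1). It was called on the gene sum, which holds no other transcript (adjusted p = 0.0761, and 0.272 in the fit of reference transcripts). That call was lost without any 1 of 5 libraries, Ver replicates 1 to 3 and Nor replicates 1 and 3, where log2 fold changes were 2.06 to 2.79. It was also lost with no filter on counts (2.64).

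The REM runs on A04 (bases 13760750 to 13806759, 4 genes) and A09 (bases 38833020 to 38869921, 2 genes) were close to silent apart from REM13-like. REM13-like (BraA09g053580.3C) had a gene sum of 1592, 3547 and 1945 normalized counts in Ver and 3177, 2780 and 1630 in Nor. Its groups overlapped, and libraries of a group differed more than the groups did (-0.10 ± 0.31, adjusted p = 0.807). REM12-like on A03 (BraA03g025470.3C) had 364, 359 and 380 in Ver and 607, 594 and 562 in Nor (-0.68 ± 0.09, adjusted p = 0.000190), without overlap and under the fold threshold.

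The remaining locus-named members that were called had few counts. At3g17010-like (BraA03g037730.3C; A03, bases 18692615 to 18693947) had 21, 24 and 19 counts in Ver and 0 in each Nor library, at least 1.75-fold higher in Ver against a floor of 12 counts per library (adjusted p = 0.00649). That bound lies under the fold threshold. Its call on the reference transcript was lost with the replicate number as a block and with limma on log2(FPKM + 1) (0.24). At5g66980 (BraA09g009240.3C; A09, bases 5285936 to 5287070) had 29.8, 39.1 and 49.0 normalized counts in Ver and 141, 92.6 and 100.2 in Nor (-1.50 ± 0.31, adjusted p = 0.0203). The groups were apart in both genes.

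At5g18090 (BraA10g022000.3C; A10, bases 15605377 to 15606622), annotated with double fertilization, had 3.08, 8.02 and 38.4 normalized counts in Ver and 98.8, 99.4 and 116 in Nor. Every Ver library was below every Nor library, with a wide spread among the Ver libraries (-2.65 ± 0.93, adjusted p = 0.0953). In edgeR the call was lost without Ver replicate 2 (-2.32), Nor replicate 1 (-2.70), Nor replicate 2 (-2.69) or Nor replicate 3 (-2.57), each time on p. The gene sum, which holds no other transcript, kept its call without each library (adjusted p = 0.00831 with all 6).

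At5g60130-like (BraA10g017860.3C; A10, bases 13387057 to 13388192) had 28.7, 37.1 and 39.4 normalized counts in Ver and 16.3, 6.78 and 1.89 in Nor (2.06 ± 0.75, adjusted p = 0.106). Its call was lost without Ver replicate 1 (2.18), Ver replicate 2 (2.02), Ver replicate 3 (1.97) or Nor replicate 2 (1.93), all with p above the threshold. Its gene sum, which holds no other transcript, kept its call without each library (adjusted p = 0.0300 with all 6). At5g57720-like (BraA02g012070.3C) had 31, 23 and 40 counts in Ver and 8, 0 and 8 in Nor, a ratio of 5.82 (exact 95% interval 2.04 to 23.6). Its unadjusted p in edgeR was just above the threshold on the reference transcript and 0.0126 on the gene sum (adjusted p = 0.0249), which holds the same counts. The reference transcript was called by DESeq2 (2.59) and without Nor replicate 2 (2.01). The groups did not overlap in either gene.

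Chinese cabbage keeps several copies of many Arabidopsis genes, so copies with the same description were compared within each library by the ratio of their gene sums. These are ratios of counts, not corrected for transcript length. They set Ver against Nor and do not give the level of 1 copy relative to another. The 17 pairs came from 9 descriptions, and pairs of 1 description share genes, so they are not independent. With 3 libraries against 3 the smallest p of the two-sided exact permutation test is 0.1 (0.17 at the lowest after adjustment over the pairs), so no pair could pass 0.05. The count ratio of the At3g11580 gene on A05 to the copy on A01 was 1.54 to 1.64 in Ver libraries and 0.509 to 0.748 in Nor libraries. For the TEM1-like gene on A08 over the copy on A09 it was 0.385 to 0.424 in Ver and 0.283 to 0.337 in Nor. The count ratios of VRN1-like over VRN1 overlapped between groups (0.737 to 0.959 in Ver and 0.906 to 0.999 in Nor). By mean FPKM, VRN1-like stood at 4.05 in Ver and 6.89 in Nor, and VRN1 at 7.29 and 10.6. The RAV1 ratios also overlapped (0.257 to 0.262 in Ver and 0.215 to 0.270 in Nor). Reads that match more than 1 copy may have been divided between copies by the counting, which was not tested.

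**Figure D5:**
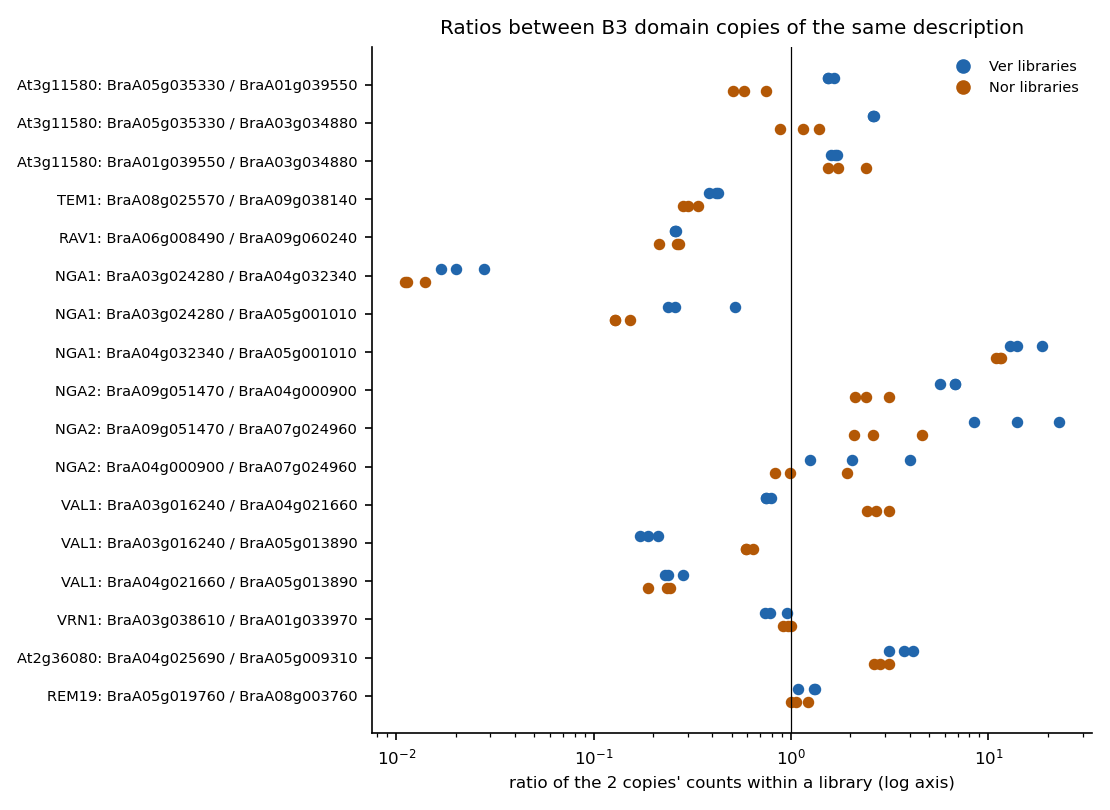
Ratios of gene-summed normalized counts between copies with the same description, in each Ver library (upper points) and Nor library (lower points) of a pair, on a log axis. The Ver and Nor points are apart in 10 of the 17 pairs. These are the pairs that set the A05 gene of At3g11580, the A03 gene of VAL1 or the A09 gene of NGA2 against the other copies, the TEM1 pair and all NGA1 pairs. The points of the other pairs, among them RAV1 and VRN1, overlap.

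The auxin response factors, which the rule left out, also carry a B3 domain. Of 30 such transcripts, 26 were tested on the reference transcript, with 3 called higher in Ver and 0 lower by edgeR (2 lower at p of at most 0.05 alone, and 2 called lower by DESeq2). On gene sums none of 29 was called by edgeR, although 14 were higher and 6 lower on the limit on p alone, and DESeq2 called 1 lower. None of the 976 circRNAs overlapped a member, and no transcript on the opposite strand did.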

How the data were processed

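RNA depleted of ribosomal RNA was sequenced from 3 Ver and 3 Nor libraries with a stranded kit. Reads were trimmed with Cutadapt, aligned by Bowtie2 and TopHat2 against the B. rapa v3.0 genome, and assembled with StringTie (the labels' tool list also names HISAT2). The deposited table of linear transcripts gives each library's estimated count, not normalized, and an FPKM value that the authors took from StringTie and Ballgown, with 0 written as 0.0001 and read here as 0. The authors also deposited a junction read count per circRNA, used here only for position, and a normalized circRNA signal, not used. StringTie divides reads among the transcripts of a gene. Single transcripts varied more between libraries than gene sums (common dispersion 0.363 against 0.0226). Whether the division of reads causes this gap was not tested, and the fits also hold different features. For a gene with a single transcript the gene sum holds the same counts. A lower p there comes from the gene-level fit.

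Estimated counts of all linear transcripts, or their sums over a gene, entered a quasi-likelihood fit (edgeR 4.0.16, R 4.3.3, filterByExpr, TMM factors, F test, no pairing), with Benjamini-Hochberg adjustment over all 49351 transcripts or all 32467 gene sums tested. The thresholds on fold change and p are those of the study's methods. The standard error is the absolute log2 fold change divided by the square root of F. Normalized counts are counts scaled to the mean effective library size. The fit was checked on simulated data. The members named are all VRN1 members, all called members, the member of each class with the highest FPKM of its reference transcript, and members called on the gene sum only; others were named after their values were seen. Members, classes and lists were chosen with earlier results of these data known. Descriptions of sinapine esterases and of AGAMOUS-like proteins, which hold a listed word by its letters only, were left out of the lists. DESeq2 1.42.0, limma 3.58.1, other filters, pseudocounts and libraries left out were alternatives. Intervals and floors cover counting error only. The methods count a culture dish as a biological repetition and divide the seeds into the groups after germination. They do not state whether a Ver and a Nor library share a dish. The p-values therefore measure the spread between repetitions of 1 line, not between independent lines.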

Additional observations from a re-analysis of the deposited data

How the results depend on the processing

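Among the alternatives, a filter at a mean CPM of at least 1 left 7 members called (5 higher, 2 lower in Ver) and 8 gene sums (6 higher, 2 lower), and limma on log2(FPKM + 1) called 5 members and 5 gene sums, all 5 higher and 0 lower in each, with 7 reference transcripts and 17 gene sums lower at an unadjusted p of at most 0.05. Both settings remove or compress weak genes by construction. DESeq2 called 8 members lower (18 in all), and an adjusted p of at most 0.05 left 3 lower. Leaving out 1 library gave 11 to 13 members called, with 7 to 9 higher and 3 to 6 lower (3 without Nor replicate 2 or Nor replicate 3), and 16 to 18 gene sums, with 11 to 12 higher and 5 to 7 lower. The NGA1-like gene BraA04g032340.3C changed sign between its reference transcript and its gene sum (0.0054), and its gene sum was -0.12 and -0.13 with limma on log2(FPKM + 1) and log2(FPKM + 0.1), and -0.054 to 0.060 without 1 library. With the replicate number as a replicate block, 10 members (6 higher, 4 lower) and 19 gene sums (12 higher, 7 lower) were called. With counts divided by 4, to read pairs, 11 members (6 higher, 5 lower) and 15 gene sums (8 higher, 7 lower) were called. At3g17010-like, At5g60130-like, At5g57720-like and the REM1-like gene on A08 did not pass the filter there. Same-numbered libraries did not deviate together (correlations of 0.0051, -0.0043 and -0.0043 over 43466 transcripts). This check cannot exclude a pairing by dish, because by the study's methods the seeds were divided into the groups after germination. Over the members named, 574 of 652 alternative values kept their direction and their side of the thresholds, 55 lost the call, 17 gained it and 6 reversed, all 6 in BraA04g032340.3C. The 652 leave out weak members that failed the filter of a setting, and these are not counted as lost. That left 27 values at a mean CPM of at least 1 and 39 with counts divided by 4, against 47 with DESeq2. Depth limits 25 members, which had 12 or fewer counts in every library.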
